A study of Mus musculus with 2 samples.

Results

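The constitutive proteasome subunits were 34 of the 32285 genes in the feature lists. They were taken by symbol: every Psma, Psmb, Psmc or Psmd gene with a number, leaving out the immunoproteasome subunits Psmb8, Psmb9 and Psmb10, the tissue-restricted Psmb11 and Psma8, and pseudogenes. The data were single-cell RNA counts of CD45+ cells sorted from spleens of WT mice. Both groups had received 10000 iRBCs, which the labels call an infection and do not spell out further, into the peritoneum. One group was given Glutoborin and the other Vehicle on days 2 and 4, and spleens were taken on day 5. Each group is 1 library made with the 10x 3′ v3.1 kit, and the sources used here give neither the number nor the age of the mice behind it. There was therefore no replicate and no test: every interval below is an exact 95% interval that covers counting error only, and a difference between the libraries cannot be told apart from a difference between any 2 spleen preparations.

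The proteasome degrades proteins that carry ubiquitin chains. Its 20S core is a barrel of stacked rings: the outer rings are built of α subunits, which gate the entry, and the inner rings of β subunits, of which β1, β2 and β5 carry the caspase-like, trypsin-like and chymotrypsin-like active sites. The 19S regulatory particle caps the barrel, with a ring of ATPases (the Rpt subunits) that unfold the substrate and non-ATPase subunits (Rpn) that bind ubiquitin and cleave it off. In lymphocytes and antigen-presenting cells, the catalytic β subunits are partly replaced by the interferon-inducible Psmb8, Psmb9 and Psmb10, which make the immunoproteasome. The 34 genes comprise 7 genes of the α ring (Psma1 to Psma7), 7 of the β ring (Psmb1 to Psmb7), 6 ATPases (Psmc1 to Psmc6) and 14 other genes (Psmd1 to Psmd14). Psmd5, Psmd9 and Psmd10 among these last encode assembly chaperones and not subunits, and the 19S subunits Adrm1 and Sem1 fall outside the symbols.

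Transcription of proteasome genes is known to be raised by Nfe2l1, which binds antioxidant response elements when proteasome activity is low, and CCAAT boxes bound by NF-Y are another known element of these promoters. RefSeq promoters of 300 bases spanning the transcription start (GRCm38.p6) were found for 28 of the 34 genes. The core of the antioxidant response element, TGACNNNGC on either strand, was present in 5 of the 28 (17.9%), namely Psmb5, Psmb6, Psmc6, Psmd9 and Psmd12, against 14% of all 27025 genes with a promoter in the table. CCAAT, on either strand, was present in 11 of 28 (39.3%), against 41.1% of all genes. None of the 28 held both, whereas 5.81% of all genes did. All 7 genes of the α ring had a promoter, of which 5 held CCAAT and 0 held TGACNNNGC; of the 4 genes of the β ring with a promoter, 1 held CCAAT and 2 held TGACNNNGC. These matches describe the letters in the window and nothing more. The promoters of 2 catalytic β subunits that hold TGACNNNGC and of 2 α subunits named repeatedly below are shown 5′ to 3′ along the strand of each gene, with TGACNNNGC and CCAAT matches in capitals. Psmb5 is at chr14:54617946-54618245 on the minus strand, Psmb6 at chr11:70525107-70525406 on the plus strand, Psma7 at chr2:180042415-180042714 on the minus strand and Psma5 at chr3:108256676-108256975 on the plus strand; the Psma5 window holds neither motif.
Psmb5: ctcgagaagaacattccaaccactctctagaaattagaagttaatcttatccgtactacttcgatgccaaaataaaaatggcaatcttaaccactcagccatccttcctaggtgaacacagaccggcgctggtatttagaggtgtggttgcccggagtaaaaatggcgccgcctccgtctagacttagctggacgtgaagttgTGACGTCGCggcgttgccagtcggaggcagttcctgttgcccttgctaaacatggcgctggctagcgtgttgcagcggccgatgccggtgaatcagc
Psmb6: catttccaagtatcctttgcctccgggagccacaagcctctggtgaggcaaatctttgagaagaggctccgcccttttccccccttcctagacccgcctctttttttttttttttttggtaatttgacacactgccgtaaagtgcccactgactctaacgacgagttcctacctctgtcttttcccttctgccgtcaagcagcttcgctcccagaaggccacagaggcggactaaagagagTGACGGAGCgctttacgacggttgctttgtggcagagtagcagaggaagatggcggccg
Psma7: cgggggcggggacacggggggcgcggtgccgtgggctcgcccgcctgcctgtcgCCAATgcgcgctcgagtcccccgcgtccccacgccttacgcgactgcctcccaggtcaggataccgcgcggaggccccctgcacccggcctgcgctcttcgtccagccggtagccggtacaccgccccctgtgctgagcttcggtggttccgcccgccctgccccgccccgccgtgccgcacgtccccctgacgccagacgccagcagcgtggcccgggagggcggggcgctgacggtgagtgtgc
Psma5: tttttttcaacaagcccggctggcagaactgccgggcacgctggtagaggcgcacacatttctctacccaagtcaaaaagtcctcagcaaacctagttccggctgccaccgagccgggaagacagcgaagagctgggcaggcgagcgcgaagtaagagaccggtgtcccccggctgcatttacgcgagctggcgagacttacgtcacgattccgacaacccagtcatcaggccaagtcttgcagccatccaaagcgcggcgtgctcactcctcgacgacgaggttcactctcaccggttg

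The Glutoborin library held 9646 barcodes and the Vehicle library 8204, with 56862506 unique molecular identifiers (UMIs, each standing for 1 captured transcript) in Glutoborin and 48526451 in Vehicle. Barcodes with at least 10% mitochondrial UMIs were 4.07% of the Glutoborin and 18.5% of the Vehicle library. After these and called doublets were left out, 8901 Glutoborin and 6492 Vehicle cells remained, with medians of 4811 UMIs in Glutoborin and 5688 UMIs in Vehicle. The libraries shared 20 barcodes among the kept cells. Ptprc, which encodes CD45, had a UMI in 94.5% of Glutoborin and 96.0% of Vehicle cells, Cd79a in 99.9% of Glutoborin and 99.8% of Vehicle B cells, and Ncr1 in 97.2% of Glutoborin and 99.2% of Vehicle natural killer (NK) cells. Csf1r was found in 99.4% of Glutoborin and 95.7% of Vehicle monocytes, and Cd8a in 90.3% of Glutoborin and 88.7% of Vehicle CD8 T cells. The markers of the other T classes were sparser: Cd4 had a UMI in 55.1% of Glutoborin and 63.8% of Vehicle CD4 T cells, and Foxp3 in 57.5% of Glutoborin and 69.6% of Vehicle regulatory T cells. The class names were rebuilt from marker genes, and the proteasome genes took no part in the clustering. Levels are given as UMIs of a gene per 1000000 UMIs of all the cells of its class in a library (CPM). They rank transcripts as counted from the 3′ end, and were not divided by length, and being relative they also move when other transcripts of the class do.

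All 34 genes were detected in both libraries. Over all kept cells their summed level was 3925 CPM in Glutoborin and 4352 CPM in Vehicle (log2 ratio −0.15, interval −0.16 to −0.14). The gap was widest for the α ring, with 1286 CPM in Glutoborin and 1500 CPM in Vehicle (log2 ratio −0.22), while the log2 ratio was −0.10 for the β ring, −0.11 for the ATPases and −0.13 for the other 14 genes. Over all cells, 32 of the 34 were below 0 in log2 ratio, against 49.8% of all 12620 genes with at least 50 UMIs. The interval lay below 0 for 28 of them (21.6% of all genes) and above 0 for 1 (18.2% of all genes), Psmb1, which encodes β6. An interval is narrower the more UMIs a gene has. These sums mix cell types whose shares differ between the libraries, so the rest is given by class. The most abundant transcripts were Psma7 (α4), Psmb1 and Psma2 (α2), with 31893, 29869 and 25405 UMIs over both libraries, and the scarcest were the assembly chaperones Psmd9, Psmd10 and Psmd5, with 3497, 2929 and 2302 UMIs.

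The summed level spanned a wider range across cell types within a library than between the libraries within a cell type. Cycling cells of cluster 21, led by Hist1h1b and Mki67, had the highest summed level in both libraries, 5677 CPM in Glutoborin and 7185 CPM in Vehicle, 1.68 times (Glutoborin) and 2.00 times (Vehicle) that of the B cells. Monocytes had 5377 CPM in Glutoborin, next below cluster 21, and 5634 CPM in Vehicle. In Vehicle, cluster 20 (led by Cxcr6, Ckb and Rora), type 1 dendritic cells, monocytes, NK cells, cluster 6 and type 2 dendritic cells followed cluster 21 in that order, and neighbours among them had overlapping intervals. In Glutoborin, type 2 dendritic cells, cluster 14, type 1 dendritic cells, cluster 6, NK cells, cluster 20, plasmacytoid dendritic cells and regulatory T cells followed the monocytes, again with overlapping neighbours. CD8 T cells had 3783 CPM in Glutoborin and 4323 CPM in Vehicle. CD4 T cells had 3732 CPM in Glutoborin and 3893 CPM in Vehicle, and B cells 3386 CPM in Glutoborin and 3598 CPM in Vehicle. Neutrophils were lowest in both, with 1995 CPM in Glutoborin and 1755 CPM in Vehicle, on 55 Glutoborin and 21 Vehicle cells.

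**Figure D1:**
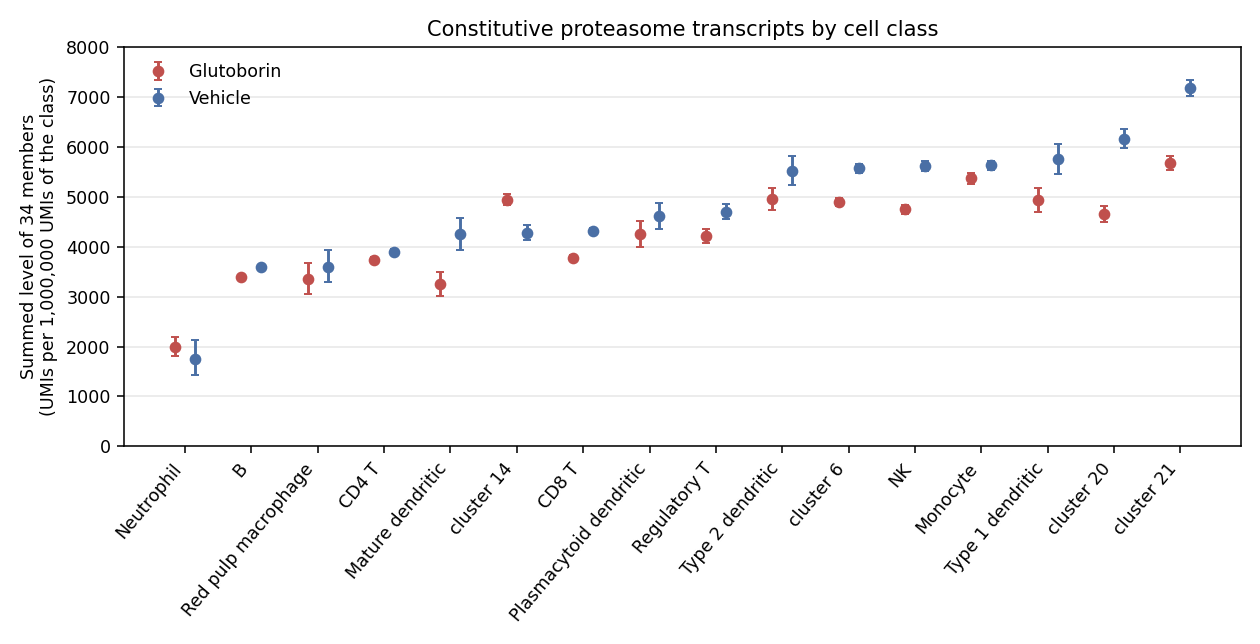
Summed level of the 34 proteasome genes (CPM, vertical axis) in each cell class, for the Glutoborin (red) and Vehicle (blue) library; bars are exact 95% intervals for counting error. The Glutoborin point lies below the Vehicle point in every class shown except the neutrophils and cluster 14, and cluster 21 is highest in both libraries.

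Single genes were followed across the 6 named classes that had 100 or more cells in both libraries (B, CD4 T, CD8 T, regulatory T, NK and monocytes). Psma7 and Psmd8 had the widest spread. Psma7 ranged 3.49-fold in Glutoborin and 3.06-fold in Vehicle, with monocytes highest at 768 CPM in Glutoborin and 801 CPM in Vehicle and B cells lowest at 220 CPM in Glutoborin and 262 CPM in Vehicle. Type 2 dendritic cells, at 664 CPM in Glutoborin and 696 CPM in Vehicle, were the next highest for Psma7. Psmd8, which encodes Rpn12 of the 19S lid, ranged 2.89-fold in Glutoborin and 2.32-fold in Vehicle, with monocytes at 305 CPM in Glutoborin and 263 CPM in Vehicle and CD4 T cells at 105 CPM in Glutoborin and 113 CPM in Vehicle. The catalytic β5 subunit Psmb5 had its highest level in monocytes of the Glutoborin library (234 CPM) and in NK cells of the Vehicle library (246 CPM), and its lowest in B cells of both (120 CPM in Glutoborin and 130 CPM in Vehicle). Psmd9 was among the most even, varying 1.26-fold in Glutoborin and 1.19-fold in Vehicle.

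**Figure D2:**
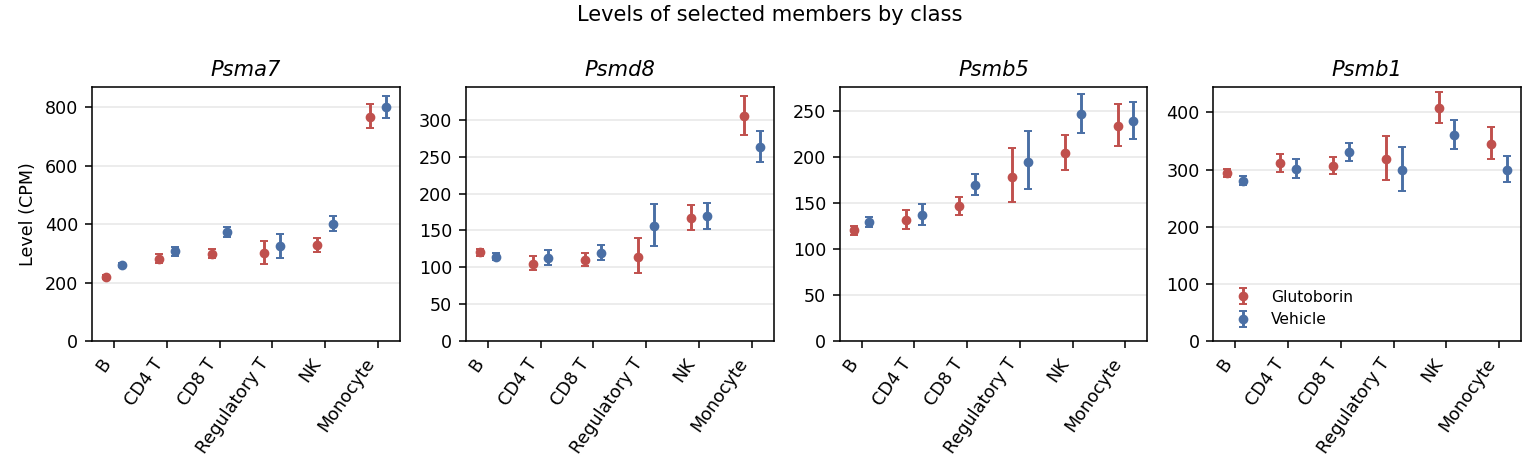
Levels (CPM, vertical axis) of Psma7, Psmd8, Psmb5 and Psmb1 in 6 cell classes for the Glutoborin (red) and Vehicle (blue) library, with exact 95% intervals for counting error. Monocytes stand apart for Psma7 (768 CPM in Glutoborin and 801 CPM in Vehicle) and Psmd8 (305 CPM in Glutoborin and 263 CPM in Vehicle), and Psmb1 is the 1 gene of the 4 that was higher in Glutoborin in NK cells.

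NK cells had the lowest log2 ratio of the 6 classes, with an interval that overlaps those of CD8 T and regulatory T cells. The summed level was 4749 CPM in 321 Glutoborin NK cells and 5624 CPM in 238 Vehicle NK cells (log2 ratio −0.24, interval −0.28 to −0.21). Of the 34 genes, 23 were at least 1.2-fold lower in Glutoborin, where 22% of all 7084 genes with at least 50 UMIs in NK cells were, and 1 was at least 1.2-fold higher, against a background of 24.2%. None was past 1.5-fold in either direction (7.09% of all genes were lower and 6.99% higher by that much). The median log2 ratio was −0.28 over the 34 genes and 0.02 over all genes, and 22 of the 34 had an interval below 0 and 1 above, against 13.7% and 13.1% of all genes.

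The lower level in NK cells ran through all 4 groups of subunits. All 7 α genes were at least 1.2-fold lower, with a summed level of 1449 CPM in Glutoborin and 1788 CPM in Vehicle. The 6 ATPases summed to 513 CPM in Glutoborin and 645 CPM in Vehicle (log2 ratio −0.33), the β ring to 1622 CPM in Glutoborin and 1802 CPM in Vehicle (−0.15) and the other 14 genes to 1164 CPM in Glutoborin and 1389 CPM in Vehicle (−0.25). By the bound of the interval, the lowest were Psmd13, Psmb2 and Psmc1. Psmd13, which encodes Rpn9 of the lid, had 94.9 CPM in Glutoborin and 137 CPM in Vehicle (log2 ratio −0.53, interval −0.79 to −0.27). Psmb2, the β4 subunit, had 186 CPM in Glutoborin and 252 CPM in Vehicle (−0.44, −0.63 to −0.25). Psmc1, the ATPase Rpt2, had 57.6 CPM in Glutoborin and 86.2 CPM in Vehicle (−0.58, −0.92 to −0.25). The 3 catalytic subunits lay on the same side: Psmb5 at 204 CPM in Glutoborin and 246 CPM in Vehicle (−0.27, −0.45 to −0.09), Psmb6 (β1) at 182 CPM in Glutoborin and 219 CPM in Vehicle (−0.26, −0.46 to −0.07) and Psmb7 (β2) at 80.1 CPM in Glutoborin and 99.7 CPM in Vehicle (−0.32, −0.61 to −0.02). Psmb1 went the other way, with 408 CPM in Glutoborin and 361 CPM in Vehicle (0.18, 0.04 to 0.32). Psmd10, the chaperone gankyrin and the 1 gene counted as higher, had 42.7 CPM in Glutoborin and 35.2 CPM in Vehicle with an interval of −0.17 to 0.73.

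**Figure D3:**
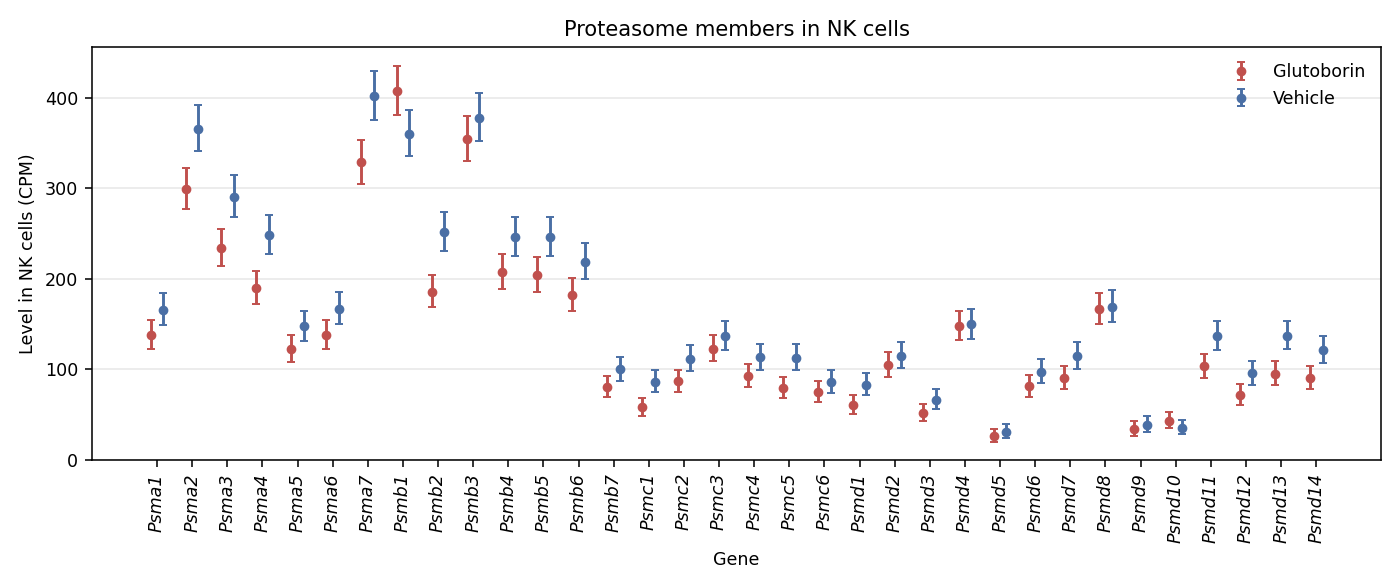
Level (CPM, vertical axis) of each of the 34 genes in NK cells of the Glutoborin (red) and Vehicle (blue) library, with exact 95% intervals for counting error. The Glutoborin point is the lower one for 32 of the 34 genes, against 47.9% of all genes in NK cells; Psmb1 and Psmd10 are the exceptions.

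The NK cells also differed in depth and in cycling. Their median was 6410 UMIs in Glutoborin and 8192 UMIs in Vehicle, and the 7 cycling markers summed to 120 CPM in Glutoborin and 244 CPM in Vehicle, with a cycling-marker UMI in 82 of 321 Glutoborin and 79 of 238 Vehicle cells. Markers of B cells, a measure of RNA from other cells, summed to 189 CPM in Glutoborin and 362 CPM in Vehicle NK cells. Among NK cells of 4000 to 8000 UMIs the summed log2 ratio was −0.18 and 13 genes were at least 1.2-fold lower; among NK cells with no UMI of a cycling marker the values were −0.22 and 15 genes. Within single ranges of depth the log2 ratio was −0.19 (4000 to 6000 UMIs), −0.16 (6000 to 8000 UMIs) and −0.17 (8000 to 12000 UMIs), each with an interval below 0. The part of RNA from other cells in the result was not tested. With every cell thinned to 2000 UMIs, an NK cell held a median of 9 proteasome UMIs in Glutoborin and 11 in Vehicle. The share of thinned NK cells with a Psmb5 UMI was 34.6% (29.4 to 40.1) in Glutoborin and 37.0% (30.7 to 43.5) in Vehicle, a difference not detectable at this depth (no class is known to lack the gene, so no background share can be set beside it); without thinning it was 68.8% in Glutoborin and 81.9% in Vehicle.

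CD8 T cells had the next lowest summed log2 ratio, −0.19 (interval −0.22 to −0.17), on 885 Glutoborin and 635 Vehicle cells, with 33 of 34 genes below 0, where 63.8% of all genes in CD8 T cells were, and 17 intervals below 0, against 15.1% of all genes. Of the 34 genes, 9 were at least 1.2-fold lower and 0 higher, against 20.3% and 8.68% of all genes in CD8 T cells. The share lower is not far from that background, and the median was −0.19 over the 34 genes and −0.08 over all genes. The large scaffold subunits of the 19S base had the clearest intervals: Psmd1 (Rpn2) had 35.7 CPM in Glutoborin and 55.1 CPM in Vehicle (log2 ratio −0.63, −0.89 to −0.37), and Psmd2 (Rpn1) had 60.2 CPM in Glutoborin and 81.2 CPM in Vehicle (−0.43, −0.64 to −0.22). Psma7 followed with 301 CPM in Glutoborin and 374 CPM in Vehicle (−0.31, −0.41 to −0.22). Psmd1 was the 1 gene past 1.5-fold, where 3.94% of all genes were lower and 1.51% higher by that much.

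The CD8 values changed when cycling cells were left out. Cycling markers summed to 14.1 CPM in Glutoborin and 90.7 CPM in Vehicle CD8 T cells, and 55 of 885 Glutoborin and 89 of 635 Vehicle cells had a UMI of one. The 10 cells richest in proteasome UMIs held 6.42% of them in Glutoborin and 13.4% in Vehicle. Without cells holding a cycling-marker UMI the summed log2 ratio was −0.09 and 3 genes were at least 1.2-fold lower; among cells of 4000 to 8000 UMIs the values were −0.11 and 4 genes. Within the T10 cluster of CD8 T cells, led by Xcl1, Tnfrsf9 and Pclaf, the summed level was 7452 CPM in Glutoborin and 7530 CPM in Vehicle (log2 ratio −0.02), and this cluster was 2.82% of the Glutoborin and 4.88% of the Vehicle CD8 T cells.

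B cells, the largest class with 4702 Glutoborin and 3169 Vehicle cells, had the narrowest intervals. The summed log2 ratio was −0.09 (−0.10 to −0.07). The largest part of the difference lay in the α ring, which summed to 1073 CPM in Glutoborin and 1210 CPM in Vehicle (log2 ratio −0.17, −0.20 to −0.15), while the ATPases summed to 391 CPM in Glutoborin and 397 CPM in Vehicle (−0.02, −0.07 to 0.02). Of the 34 genes, 2 were at least 1.2-fold lower and 0 higher, against 10.7% and 12.5% of all genes in B cells, and 14 intervals lay below 0, against 14% of all genes. None was past 1.5-fold, where 3.35% of all genes were lower and 2.25% higher. The 2 were Psma4 (α3), at 118 CPM in Glutoborin and 145 CPM in Vehicle (−0.30, −0.38 to −0.22), and Psma5 (α5), at 94.5 CPM in Glutoborin and 114 CPM in Vehicle (−0.26, −0.36 to −0.17). Psma7 came just short of that fold at 220 CPM in Glutoborin and 262 CPM in Vehicle (−0.25, −0.31 to −0.19). The catalytic Psmb5 had 120 CPM in Glutoborin and 130 CPM in Vehicle (−0.11), Psmb6 124 CPM in Glutoborin and 134 CPM in Vehicle (−0.11) and Psmb7 62.3 CPM in Glutoborin and 63.5 CPM in Vehicle (−0.03). Psmb1 was higher, at 294 CPM in Glutoborin and 280 CPM in Vehicle (0.07, 0.02 to 0.12). The B class held different shares of its clusters in the libraries: cluster 2 was 8.42% of Glutoborin and 28.6% of Vehicle B cells and cluster 3 was 22.4% of Glutoborin and 12.5% of Vehicle B cells. Within its 8 clusters the median summed log2 ratio was −0.04, and the part of the cluster shares in the class value was not tested. The share of B cells with a Psmb5 UMI at 2000 UMIs was 21.5% in Glutoborin and 23.7% in Vehicle, and at 1000 UMIs the order turned, with 11.9% in Glutoborin and 11.3% in Vehicle. At 2000 UMIs the median B cell held 7 proteasome UMIs in both libraries.

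Cluster 6, which carries the B-cell core genes and is led by Il4i1, Egr3 and Cd83, was kept apart from the B cells. It had 4892 CPM in 436 Glutoborin cells and 5574 CPM in 364 Vehicle cells (log2 ratio −0.19, −0.22 to −0.16). In it 7 of the 34 genes were at least 1.2-fold lower and 0 higher, against 16.9% and 18.5% of all genes, and the median was −0.16 against 0.01. None of the 34 was past 1.5-fold, where 3.89% of all genes were lower and 3.47% higher. Counted among the B cells, it moved their summed log2 ratio to −0.13.

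CD4 T cells had the summed log2 ratio nearest to 0, −0.06 (−0.09 to −0.03), with 3732 CPM in Glutoborin and 3893 CPM in Vehicle, and 0 of the 34 genes were 1.2-fold lower or higher, against 14.4% and 12.9% of all genes (2.96% and 2.28% at 1.5-fold). The 3 genes with the clearest intervals were again of the α ring: Psma2 at 275 CPM in Glutoborin and 302 CPM in Vehicle (−0.14, −0.25 to −0.03), Psma1 (α6) at 102 CPM in Glutoborin and 118 CPM in Vehicle (−0.21, −0.39 to −0.03) and Psma7 at 282 CPM in Glutoborin and 308 CPM in Vehicle (−0.12, −0.23 to −0.01). Regulatory T cells had 4221 CPM in 153 Glutoborin cells and 4702 CPM in 125 Vehicle cells (−0.16, −0.22 to −0.09). Of the 33 genes measured in them, which leaves out Psmd5, 12 were at least 1.2-fold lower and 0 higher, against 23.1% and 13.9% of all genes. Past 1.5-fold were 3 lower and 0 higher, against 4.81% and 2.49%, and the 10 richest cells held 22% of the proteasome UMIs in Glutoborin and 22.9% in Vehicle. The clearest were Psmb6, at 134 CPM in Glutoborin and 206 CPM in Vehicle (−0.62, −0.98 to −0.26), Psma3 (α7), at 222 CPM in Glutoborin and 306 CPM in Vehicle (−0.46, −0.75 to −0.18), and Psmd1, at 38.4 CPM in Glutoborin and 68.8 CPM in Vehicle on 32 Glutoborin and 54 Vehicle UMIs (−0.84, −1.52 to −0.19). Among genes with at least 200 UMIs in regulatory T cells, 6 of 14 were at least 1.2-fold lower.

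Monocytes, with high levels in both libraries, showed a mixed picture. The summed log2 ratio was −0.07 (−0.11 to −0.03) on 165 Glutoborin and 235 Vehicle cells, and 5 of 34 genes were at least 1.2-fold lower and 0 higher, against 20.5% and 17.4% of all genes. None was past 1.5-fold, where 5.51% of all genes were lower and 3.66% higher. Psma5 had 137 CPM in Glutoborin and 187 CPM in Vehicle (−0.44, −0.68 to −0.21), Psmd4, the ubiquitin receptor Rpn10, 136 CPM in Glutoborin and 168 CPM in Vehicle (−0.31, −0.55 to −0.07), and Psma4 241 CPM in Glutoborin and 279 CPM in Vehicle (−0.21, −0.39 to −0.03). On the other side, Psmd8 had 305 CPM in Glutoborin and 263 CPM in Vehicle (0.21, 0.04 to 0.38) and Psmb1 345 CPM in Glutoborin and 300 CPM in Vehicle (0.20, 0.04 to 0.36). The catalytic subunits were level, with Psmb5 at 234 CPM in Glutoborin and 239 CPM in Vehicle, Psmb6 at 195 CPM in Glutoborin and 189 CPM in Vehicle and Psmb7 at 99.1 CPM in Glutoborin and 99.8 CPM in Vehicle, all with intervals that include 0. Among monocytes of 4000 to 8000 UMIs the summed log2 ratio was −0.27. Few cells lay in that window: at 4000 to 6000 UMIs, with 25 Glutoborin and 23 Vehicle cells, the ratio was −0.22 (−0.40 to −0.05). At 8000 to 12000 UMIs, with 60 Glutoborin and 88 Vehicle cells, it was −0.03 (−0.09 to 0.03), and at 12000 UMIs or more, with 64 Glutoborin and 81 Vehicle cells, −0.08 (−0.14 to −0.03).

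Across the 6 classes, 9 genes lay below 0 in every one: Psma2, Psma4, Psma5, Psma7, Psmb2, Psmb5, Psmd1, Psmd11 and Psmd13. That was 9 of the 33 with at least 50 UMIs in each class, where 10.5% of all 3754 such genes lay below 0 in every one. Psma4 ranged between −0.45 and −0.16 over the classes and Psma5 between −0.44 and −0.20. Of the groups, 4 of the 7 α genes, 2 of the 7 β genes, 0 of the 6 ATPases and 3 of the other 14 were among them. All 6 comparisons come from the same pair of libraries and are not independent. Psmb1 had an interval above 0 in B cells, NK cells and monocytes and below 0 in CD8 T cells, at 307 CPM in Glutoborin and 330 CPM in Vehicle (−0.10, −0.20 to −0.01). The median over all genes in CD8 T cells was itself −0.08, and 63.8% of them lay below 0.

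**Figure D4:**
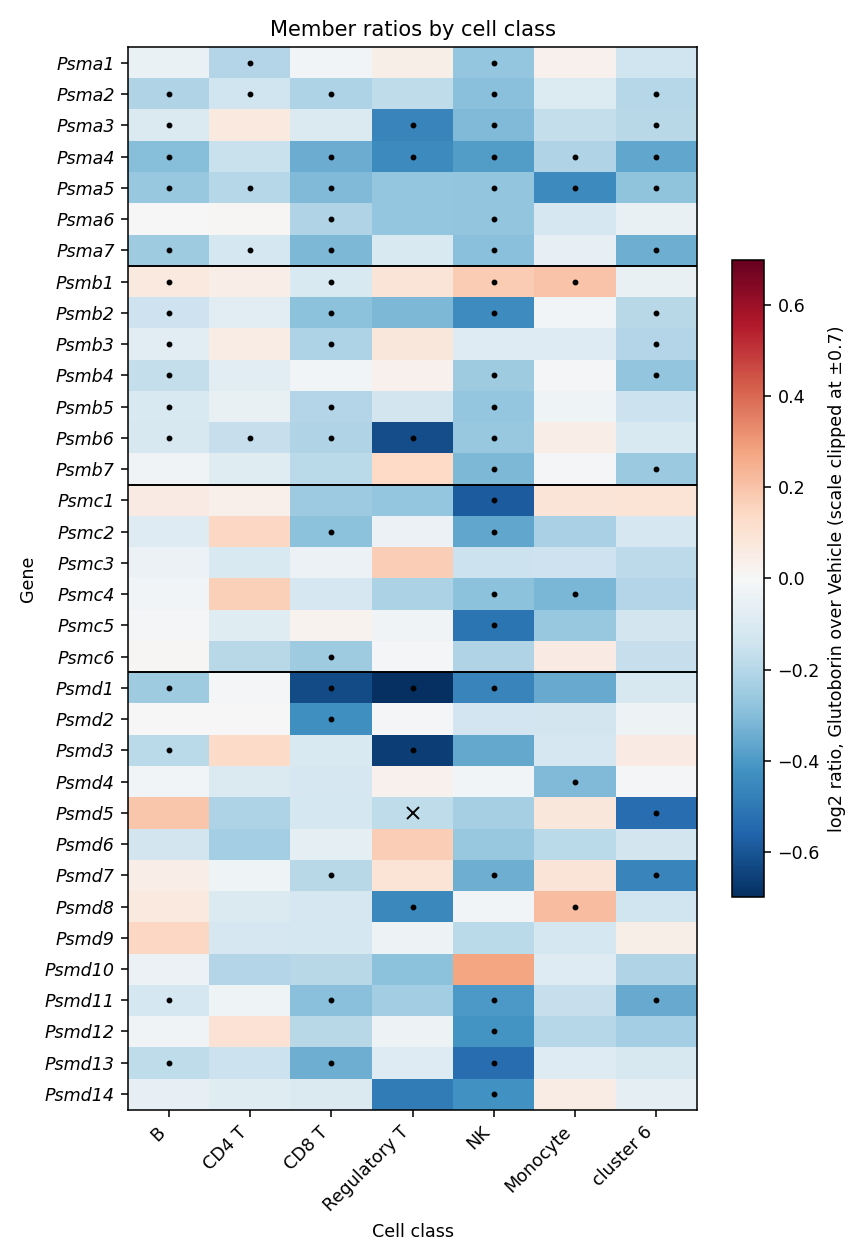
Log2 ratio of Glutoborin over Vehicle (colour, blue for lower in Glutoborin) of each gene (rows, in the order α ring, β ring, ATPases, other 19S genes) in 7 cell classes (columns); a dot marks an interval that excludes 0 and a cross a gene with too few UMIs. The α ring in the top block is the most evenly blue, and Psmb1 and Psmd8 carry dots on both sides of 0.

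Smaller classes had wide intervals. Mature dendritic cells had 3250 CPM in 31 Glutoborin cells and 4248 CPM in 21 Vehicle cells (log2 ratio −0.39, −0.54 to −0.23), and plasmacytoid, type 1 and type 2 dendritic cells lay between −0.22 and −0.12. Red pulp macrophages had 3358 CPM in Glutoborin and 3601 CPM in Vehicle with an interval that includes 0 (−0.29 to 0.08). In neutrophils the summed interval also included 0 (−0.13 to 0.51), while the β ring had 711 CPM in Glutoborin and 430 CPM in Vehicle (0.73, 0.11 to 1.40) on 148 Glutoborin and 25 Vehicle UMIs. Of these UMIs, Psmb1 alone held 32 in Glutoborin and 2 in Vehicle. None of the 34 genes reached 50 UMIs over both libraries in neutrophils. The unnamed clusters 20 and 21 were both lower in Glutoborin: cluster 20 had 4655 CPM in 97 Glutoborin cells and 6170 CPM in 70 Vehicle cells (−0.41, −0.47 to −0.34), and cluster 21 had 5677 CPM in 57 Glutoborin cells and 7185 CPM in 45 Vehicle cells (−0.34, −0.39 to −0.29). In cluster 21, 20 of the 34 genes had an interval below 0 and 0 above, against 16.1% and 16.4% of all genes with at least 50 UMIs. Cycling markers in cluster 20 summed to 49.3 CPM in Glutoborin and 145 CPM in Vehicle, and their part in its difference was not tested. The make-up of cluster 21 differed too. Its NK markers summed to 9435 CPM in Glutoborin and 5418 CPM in Vehicle, and its T-cell markers to 2353 CPM and 2661 CPM. Its cycling markers summed to 5296 CPM in Glutoborin and 4272 CPM in Vehicle. The part of this make-up in the difference of cluster 21 was not tested.

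Cluster 14 ran the other way. It is led by Car1, Mt2, Prg2, Derl3 and Mt1, holds plasma-cell and cycling genes, and has no name here. Its summed level was 4946 CPM in 76 Glutoborin cells and 4278 CPM in 44 Vehicle cells (log2 ratio 0.21, 0.15 to 0.27). All 4 groups of genes lay above 0 (α 0.13, β 0.23, ATPases 0.21 and others 0.28), 9 of the 34 genes had an interval above 0 and 0 below, against 12.5% and 12.2% of all genes with at least 50 UMIs, and the 3 immunoproteasome genes lay below, at −0.36. The make-up of the cluster differed between libraries: Car1, a carbonic anhydrase gene of erythroid cells, was at 672 CPM in Glutoborin and had 0 UMIs in Vehicle. Jchain was 10276 CPM in Glutoborin and 12149 CPM in Vehicle. The part of this make-up in the difference was not tested.

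Levels were also compared within single clusters, since a class can hold different shares of them in each library. Of 42 clusters with at least 20 cells in each library, 37 had a summed log2 ratio below 0, 23 with an interval below 0, and 2 had an interval above 0; the median was −0.09. With at least 50 cells in each library, the limit used at first, 23 of 25 clusters were below 0, 15 with an interval below 0 and 1 with an interval above. All these clusters come from the same pair of libraries and are not independent, and no share over all genes is set beside these counts. The 8 B-cell clusters lay between −0.15 and 0.00 and 3 had an interval below 0; the lowest was cluster 8, which carries the marginal-zone genes Cr2 and Cd1d1, with 3031 CPM in Glutoborin and 3372 CPM in Vehicle. The 4 CD4 clusters lay between −0.10 and −0.04 and the 5 CD8 clusters between −0.11 and −0.02, all nearer to 0 than the −0.19 of the CD8 class as a whole. The second cluster above 0 was M5, whose leading genes include the erythroid genes Car1 and Alas2, with 5928 CPM in Glutoborin and 4295 CPM in Vehicle (0.46, 0.25 to 0.68) and medians of 928 UMIs a cell in Glutoborin and 676 in Vehicle.

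**Figure D5:**
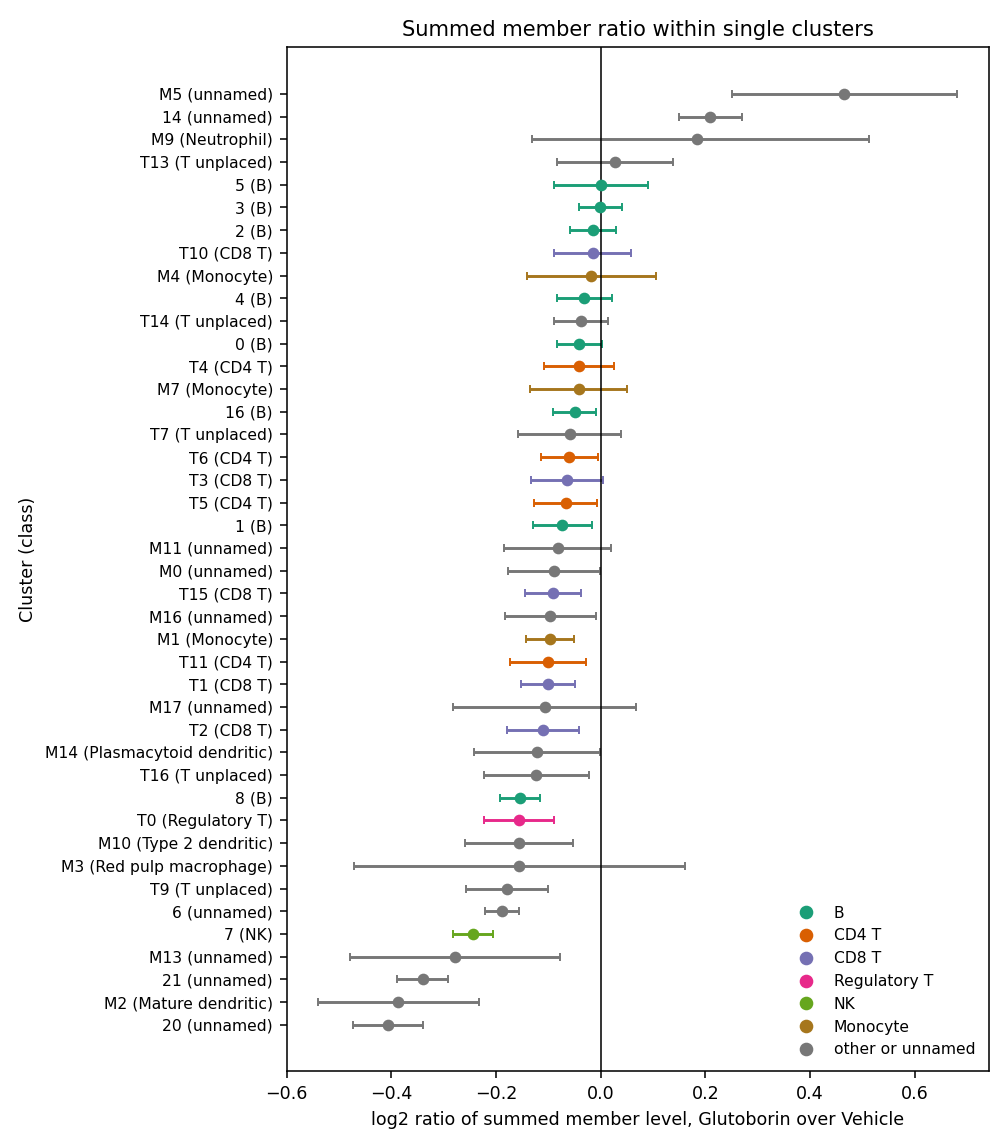
Log2 ratio of the summed level of the 34 genes, Glutoborin over Vehicle (horizontal axis), in each of 42 clusters with at least 20 cells in each library; points are coloured by class and bars are exact 95% intervals for counting error. Clusters M5 and 14 are the 2 with an interval above 0, and NK cells, mature dendritic cells, cluster 20 and cluster 21 are among the lowest.

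The partners of the constitutive subunits differed by cell type too. The immunoproteasome genes outnumbered their constitutive counterparts in every class of 100 cells or more. In B cells, the ratio of UMIs of Psmb8 to Psmb5, which compete for the β5 site, was 4.69 (4.50 to 4.90) in Glutoborin and 5.18 (4.95 to 5.42) in Vehicle. For Psmb9 over Psmb6 it was 2.75 (2.63 to 2.87) in Glutoborin and 3.52 (3.36 to 3.69) in Vehicle, and for Psmb10 over Psmb7 3.22 (3.03 to 3.42) in Glutoborin and 4.23 (3.96 to 4.53) in Vehicle. All 3 ratios were lower in Glutoborin B cells, with intervals that do not overlap. Monocytes had lower ratios as well, with Psmb8 over Psmb5 at 3.43 (3.07 to 3.83) in Glutoborin and 4.43 (4.04 to 4.87) in Vehicle. For the other pairs the intervals overlapped in monocytes. Psmb9 over Psmb6 was 2.04 (1.79 to 2.33) in Glutoborin and 2.45 (2.20 to 2.75) in Vehicle. Psmb10 over Psmb7 was 3.41 (2.87 to 4.06) in Glutoborin and 4.59 (3.98 to 5.30) in Vehicle. In CD8 T cells the intervals overlapped for all 3 pairs. Psmb8 over Psmb5 was 5.03 in Glutoborin and 4.63 in Vehicle, Psmb9 over Psmb6 2.27 in Glutoborin and 2.10 in Vehicle, and Psmb10 over Psmb7 4.35 in Glutoborin and 3.95 in Vehicle. With coarser clusters (Leiden resolution 0.8) the order of the libraries turned for Psmb8 over Psmb5, at 5.60 in Glutoborin and 5.64 in Vehicle, and for Psmb9 over Psmb6, at 2.45 in Glutoborin and 2.53 in Vehicle. In NK cells the ratio of Psmb8 to Psmb5 was higher in Glutoborin, 3.16 (2.84 to 3.52) against 2.48 (2.24 to 2.75) in Vehicle. Psmb8 had 645 CPM in Glutoborin and 611 CPM in Vehicle NK cells, while Psmb5 was lower in Glutoborin. Psmb9 over Psmb6 and Psmb10 over Psmb7 also had higher ratios in Glutoborin NK cells. For both of these pairs the intervals of the libraries overlapped, so only the ratio of Psmb8 to Psmb5 stood apart in NK cells.

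The 44 other genes of the pathway included 5 activators and inhibitors of the 20S core, whose summed log2 ratio was below 0 in each of the 6 classes, between −0.55 in B cells and −0.19 in CD8 T cells. Single genes of the 5 did not all follow this sum. In NK cells 3 of the 5 were at least 1.2-fold lower and 2 higher, against 22% and 24.2% of all genes. In CD4 T cells 4 lay below 0 and 1 above, where 4289 of all 8380 genes lay below 0. Psme2, which encodes PA28β of the interferon-inducible cap, had 264 CPM in Glutoborin and 409 CPM in Vehicle B cells (log2 ratio −0.63) and 347 CPM in Glutoborin and 537 CPM in Vehicle NK cells (−0.63). Of the 44 genes in B cells, 7 were at least 1.2-fold lower and 1 higher, against 10.7% and 12.5% of all genes. The counts were 5 and 3 in CD4 T cells (14.4% and 12.9% of all genes), 7 and 2 in CD8 T cells (20.3% and 8.68%) and 16 and 5 in NK cells (22% and 24.2%). In monocytes they were 9 and 4 of the 42 measured (20.5% and 17.4% of all genes) and in regulatory T cells 6 and 5 of 33 (23.1% and 13.9%). Past 1.5-fold were 1 lower and 0 higher in B cells (3.35% and 2.25% of all genes). In NK cells these counts were 3 and 0 (7.09% and 6.99%), and in monocytes 1 and 0 (5.51% and 3.66%). They were 0 and 1 in regulatory T cells (4.81% and 2.49%). None was past 1.5-fold in CD4 T cells (2.96% and 2.28%) or CD8 T cells (3.94% and 1.51%). The shares past 1.5-fold were near or under those of all genes. In NK cells, Adrm1, the ubiquitin receptor Rpn13, had 51.3 CPM in Glutoborin and 78.8 CPM in Vehicle (−0.62), and the shuttle Ubqln1 32.4 CPM in Glutoborin and 52.9 CPM in Vehicle (−0.71). Psmf1, an inhibitor of the 20S core, had 19.4 CPM in Glutoborin and 33.3 CPM in Vehicle monocytes (−0.78). Nfyb, a subunit of NF-Y, had 75.5 CPM in Glutoborin and 48.4 CPM in Vehicle regulatory T cells (0.64, 0.04 to 1.26). Nfe2l1, the activator of proteasome genes, had 33.8 CPM in Glutoborin and 36.1 CPM in Vehicle B cells and 28.3 CPM in Glutoborin and 30.6 CPM in Vehicle NK cells, with intervals that include 0 in both. In regulatory T cells Nfe2l1 had 37.2 CPM in Glutoborin and 28.0 CPM in Vehicle (0.41, −0.43 to 1.26), on 31 Glutoborin and 22 Vehicle UMIs.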

How the data were processed

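The files deposited by the authors are matrices of UMI counts, whole numbers for each gene in each barcode. Their headers name Cell Ranger 6.1.2, per the file headers, while Cell Ranger 6.0.1, Seurat 4.3.0 and, as genome, mm10 come from the submitters' processing notes; no source used here names the annotation release. Barcodes with under 300 genes, under 500 UMIs or 10% or more of mitochondrial UMIs were left out, as were doublets that Scrublet called in each library. Cells were clustered with scanpy 1.11.5 (2000 variable genes without the proteasome and pathway lists, 30 principal components, 15 neighbours, Leiden resolution 1.5, T and myeloid cells clustered again) and named from marker lists; limits on naming were set after the clusters were seen. UMIs were summed per class and library; classes with 100 or more cells in both libraries were compared and those with 20 or more described. Genes needed 50 UMIs over both libraries. Exact Poisson intervals of sums and ratios and Clopper-Pearson intervals of shares (scipy 1.17.1) cover counting error only. A gene was counted as lower or higher past 1.2-fold. No test was possible with 1 library a group. The scripts were tested on simulated data.

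Genes named with full values were the 3 catalytic subunits, the 3 most and 3 least abundant members, in each class of at least 100 cells up to 3 members on each side whose interval lay farthest from 0, and pathway genes past 1.5-fold. Psmd8 and Psma7 across classes, Psmd10 in NK cells, Nfe2l1, Psme2 and Psmb8 beside Psmb5, and the promoters shown were chosen after their values were seen, as was the minimum of 20 cells for a cluster. The members and lists were chosen with earlier results of these data known. Promoter sequences are RefSeq's. One item is not reported here.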

Additional observations from a re-analysis of the deposited data

Results flagged for a closer look

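Cluster 14 had a summed log2 ratio of 0.21 with an interval above 0, on the other side of 0 from the classes whose intervals lay below it, and the sub-cluster M5 had 0.46; the differences between clusters were not tested. Psmb1 had intervals above 0 in B cells (0.07), NK cells (0.18) and monocytes (0.20) and below 0 in CD8 T cells (−0.10), and the difference between classes was not tested. In CD8 T cells the median over all genes was −0.08 and 63.8% of all genes lay below 0, so the Psmb1 value there is near that of a typical gene. Psmd8 was on opposite sides in regulatory T cells (−0.45) and monocytes (0.21), a difference that was not tested either. The regulatory T value rests on 95 Glutoborin and 122 Vehicle UMIs, with an interval of −0.85 to −0.05.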

How the results depend on the processing

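No paired analysis was possible because each group is 1 library with no replicate number to pair. No summed ratio or median changed sign in any alternative run. Single members were recomputed only for 22 pairs of gene and class, chosen because their intervals lay farthest from 0. This was done only in the runs that changed the filters, clustering or scaling. These 132 ratios kept their sign and moved by no more than their counting intervals, and the other members were not checked. Within single ranges of depth, the summed log2 ratio was above 0 in B cells of 500 to 2000 UMIs (0.13, −0.13 to 0.39). It was also above 0 in CD4 T cells of 8000 to 12000 UMIs (0.04, −0.07 to 0.15), and below 0 in the other ranges described. Signs turned for 2 differences in the share of B cells with a UMI and for 2 ratios between subunits of CD8 T cells, given below. The windows of depth, the removal of cells with a cycling-marker UMI and the inclusion of cluster 6 among B cells were chosen after seeing the data. The summed log2 ratio moved in B cells to −0.13 with cluster 6, −0.0688 with a mitochondrial limit of 25% and −0.0597 when scaled without ribosomal, mitochondrial, haemoglobin and antigen receptor genes. In CD8 T cells it became −0.10 at Leiden resolution 0.8, −0.11 at 4000 to 8000 UMIs, −0.0921 without cycling cells, −0.12 with doublets kept, −0.13 at 25%, −0.13 as a mean over cells and −0.12 with the reduced scaling. At 4000 to 8000 UMIs it was −0.27 in monocytes and −0.18 in NK cells. The median log2 ratio of the members moved in B cells to −0.0744 (4000 to 8000 UMIs), −0.10 (cluster 6), −0.0705 (median-of-ratios scaling) and −0.0234 (reduced scaling). In CD8 T cells it was −0.11 (resolution 0.8), −0.13 (4000 to 8000 UMIs), −0.0904 (no cycling), −0.11 (doublets), −0.13 (25%), and −0.12 (mean over cells, median-of-ratios and reduced scaling). It was −0.21 and −0.0505 in monocytes (4000 to 8000 UMIs, mean), −0.18 and −0.23 in NK cells (4000 to 8000 UMIs, 25%), and −0.21, −0.19 and −0.17 in regulatory T cells (no cycling, doublets, mean). Members at least 1.2-fold lower numbered 1 (no cycling), 1 (25%), 4 (median-of-ratios) and 1 (reduced scaling) in B cells, and 1, 1, 2, 2 and 2 in CD4 T cells (resolution 0.8, 4000 to 8000 UMIs, no cycling, 25%, mean). In CD8 T cells they numbered 3 (resolution 0.8), 4 (4000 to 8000 UMIs), 3 (no cycling), 4 (25%), 5 (mean), 4 (median-of-ratios) and 4 (reduced scaling). In NK cells they numbered 13 (4000 to 8000 UMIs), 15 (no cycling) and 13 (25%), and in regulatory T cells 6 with at least 200 UMIs. At 1.5-fold they were 0 in B cells, 1 in CD8 T cells, 0 in monocytes, 0 in NK cells and 3 in regulatory T cells. Members at least 1.2-fold higher numbered 2 in monocytes (4000 to 8000 UMIs, and mean), 3, 1 and 1 in regulatory T cells (4000 to 8000 UMIs, no cycling, mean) and 0 in NK cells (200 UMIs, doublets, 1.5-fold, 25%, median-of-ratios). Shares of cells with a UMI, Glutoborin minus Vehicle in percentage points, were −5.27, −5.94 and −3.11 in B cells and −13.1, −13.1 and −13.2 in NK cells for Psmb5, Psmb6 and Psmb7 without thinning, where depth differs, and at 1000 UMIs 0.605 for Psmb5 (−2.22 at 2000 UMIs) and −0.0761 for Psmb7 (0.255 at 2000 UMIs) in B cells. At resolution 0.8, Psmb10 over Psmb7 in CD8 T cells was 4.88 in Glutoborin and 4.87 in Vehicle, Psmb8 over Psmb5 was 5.60 in Glutoborin and 5.64 in Vehicle, Psmb9 over Psmb6 was 2.45 in Glutoborin and 2.53 in Vehicle, and in Glutoborin B cells it was 2.61. Apart from the numbers that the construction of an alternative sets (fewer cells or genes), the cause of these moves was not tested. Depth limits the small classes and the chaperones Psmd5, Psmd9 and Psmd10 most.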
